A study of Mus musculus with 6 samples.

Results

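The 34 genes described here encode signalling, adhesion and cytoskeletal proteins whose expression is largely restricted to blood cells. They were taken by gene symbol from a list of haematopoietic-restricted genes, and all 34 were among the 18482 genes of the read count table. RNA was measured in whole ear skin of mice at postnatal day 21. In lecko mice Vegfr2 (gene symbol Kdr) was deleted in lymphatic endothelium after tamoxifen, and the controls were their littermates. Both groups received tamoxifen and held 3 libraries of polyadenylated RNA each. The labels name neither the Cre driver, the strain, nor which of the listed tamoxifen schedules was used, and they do not tie a library to an animal or litter. P-values therefore measure the spread between these samples, which may be technical. The question asked of these genes is whether RNA typical of leukocytes differed in skin when VEGFR2 was removed from lymphatic vessels.

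Leukocytes of all lineages share a core set of proteins. The phosphatase CD45, encoded by Ptprc, sets the activity of Src family kinases at the membrane. Integrins with the beta-2 chain hold the cell to vessel walls and to other cells, and small GTPases with their exchange factors remodel the actin cortex during migration. In skin these transcripts come mainly from resident macrophages, dendritic and Langerhans cells, T cells and mast cells. In bulk tissue a difference in their level cannot be divided into a different number of such cells and a different amount of RNA per cell.

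Depth was similar, with 17242921 to 17825135 estimated counts in a library. Kdr gave 9.76, 11.2 and 10.2 CPM (read counts relative to the library total after TMM scaling) in lecko skin, against 32.6, 31.3 and 38.5 CPM in control skin. Its log2 fold change, lecko over control, was -1.72 (SE 0.10), with adjusted p = 0.00026 by edgeR over 14856 tested genes. Values of whole skin do not show in which cells Kdr RNA fell. Summed counts of 4 Y-linked genes were 4 to 21 in lecko libraries, and 18.45, 4272 and 4564 in controls 1 to 3. Controls 2 and 3 thus differed from the other 4 libraries in Y-linked expression. Some results below, among them the median log2 fold change and Fgr, are also given with this difference as a covariate. The co-variation of the genes and the values by role are not. The skin markers were high in every library, with summed keratinocyte markers (Krt5, Krt14, Krt1, Krt10 and Trp63) between 21890 and 25250 CPM. Of 6 B cell markers, 1 had enough counts to be tested, and the B cell sum was 0.961 to 1.36 CPM in lecko and 0.971 to 1.49 CPM in control libraries.

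Promoter sequence gives the genes a context that the counts do not. RefSeq promoters (build GRCm38.p6) were available for 26 of the 34 genes, and the 250 bases before each annotated start were searched on both strands for the exact letters of 3 motifs. The 26 genes had 33 promoters, and a gene counted if any of its promoters held the letters. GAGGAAGT, a site of the macrophage and B cell factor PU.1, occurred in 3 of 26 genes (11.5%), against 2.79% of 27025 genes. TGTGGTTT, a site of RUNX factors, also occurred in 3 of 26 (11.5%), against 1.78% of all genes. TATAAA, the TATA box, occurred in 4 of 26 (15.4%), against 14.3%. The windows of 100 bases that hold the PU.1 and RUNX letters, printed in the direction of transcription with the match in capitals (its reverse complement for Cd37 and Cytip), are shown because these factors are known to drive leukocyte genes. Cd37 lies at chr7:45238840-45238939 (minus strand), Inpp5d at chr1:87620212-87620311 (plus), Vav1 at chr17:57279000-57279099 (plus), Cybb at chrX:9469374-9469473 (minus), Cytip at chr2:58160135-58160234 (minus) and Was at chrX:8090492-8090591 (minus). The windows of Inpp5d, Vav1 and Was adjoin the outer start of the gene. Those of Cd37, Cybb and Cytip lie inside the annotated span of the gene, before an internal start. That span is chrX:9435252-9487766 for Cybb and chr2:58129139-58195549 for Cytip.
Cd37: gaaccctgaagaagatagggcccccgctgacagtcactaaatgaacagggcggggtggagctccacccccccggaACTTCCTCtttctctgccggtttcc
Inpp5d: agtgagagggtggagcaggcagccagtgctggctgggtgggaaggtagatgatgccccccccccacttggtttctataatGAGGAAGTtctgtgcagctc
Vav1: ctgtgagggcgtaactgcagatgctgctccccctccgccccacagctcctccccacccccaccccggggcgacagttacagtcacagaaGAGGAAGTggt
Cybb: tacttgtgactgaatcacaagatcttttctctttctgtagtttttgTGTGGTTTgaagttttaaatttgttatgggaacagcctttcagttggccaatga
Cytip: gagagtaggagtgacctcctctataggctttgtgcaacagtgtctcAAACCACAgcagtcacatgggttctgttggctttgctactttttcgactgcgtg
Was: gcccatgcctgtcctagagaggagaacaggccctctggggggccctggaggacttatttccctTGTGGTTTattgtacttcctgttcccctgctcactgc
A match is a description of letters and does not show binding. CpG dinucleotides were counted in the same 250 bases, with the highest count taken where a gene had several promoters. The median was 4 in the 26 genes and 22 in 16 broadly expressed relatives described below, against 6 over all 27025 genes.

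All 34 genes had enough counts to be tested, and their counts ranged from 14 (Lair1) to 2337 (Arhgdib) in a library. None passed edgeR's test at an adjusted p under 0.05 (smallest 0.127, for Fgr). Of all genes 0.0202% passed it, 0.0135% higher and 0.00673% lower. All 34 had a positive log2 fold change, from 0.14 for Ptpn6 to 1.00 for Fgr, where 51.9% of all tested genes were positive. Their median was 0.42, beside 0.01 over all tested genes, and 4.18% of all tested genes lay above this median. By edgeR, 19 of the 34 had an unadjusted p under 0.05 and were higher, against 4.89% of all genes in that direction, and 0 were lower, against 3.68%. The lecko and control values did not overlap, with lecko higher, for 14 of the 34, against 7.37% of all genes, and with lecko lower for 0, against 7.23%. DESeq2 called 3 of the 34 higher (Fgr, Ptprc and Cyth4), a direction in which it called 0.162% of all genes, and it called 0 lower, against 0.0539%. By limma-voom 0 of the 34 passed after adjustment (0.0202% of all genes), and 20 were higher at an unadjusted p under 0.05 (5.11% of all genes). The 34 genes varied together between libraries, as described below, so these counts do not stand for as many independent results.

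**Figure D1:**
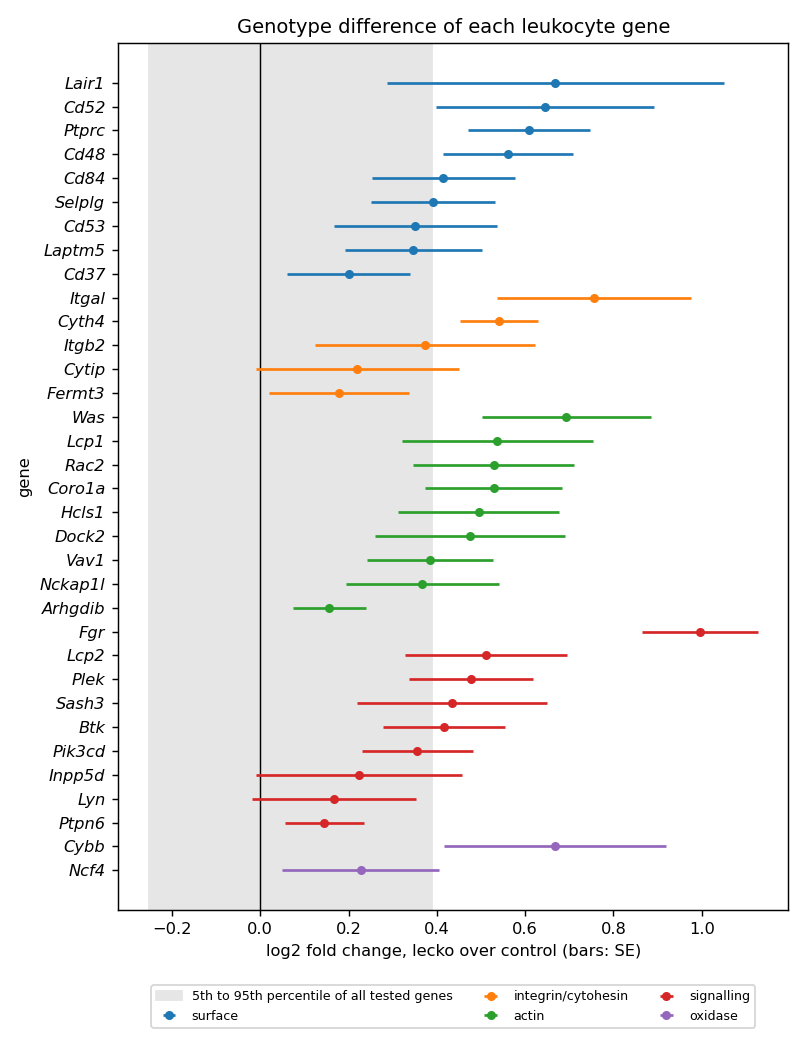
Log2 fold change of each gene, lecko over control, on the x axis, with genes by role on the y axis. Points are edgeR estimates, bars are SE, and the grey band is the 5th to 95th percentile of all 14856 tested genes (-0.25 to 0.39). All 34 points lie right of 0, and Fgr lies farthest at 1.00.

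Among the 9 surface proteins, 5 were higher at an unadjusted p under 0.05 by edgeR, against 4.89% of all genes. Their median log2 fold change was 0.41. Ptprc, the gene of CD45, gave 62.5, 46.2 and 54.0 CPM in lecko libraries 1 to 3, against 35.9, 40.6 and 30.2 CPM in controls 1 to 3. Every lecko library lay above every control library. Its log2 fold change was 0.61 (SE 0.14, 95% interval 0.29 to 0.93), with adjusted p = 0.385 by edgeR and 0.0227 by DESeq2. Cd48, a ligand of the CD2 and 2B4 receptors, gave 15.01, 12.2 and 14.0 CPM in lecko, against 10.6, 9.95 and 7.42 CPM in control libraries, again without overlap. The log2 fold change of Cd48 was 0.56 (SE 0.15), with adjusted p = 0.439 by edgeR. Selplg, which encodes the selectin ligand PSGL-1, gave 29.7, 22.7 and 25.2 CPM in lecko and 18.9, 23.4 and 16.9 CPM in control libraries. Lecko 2 lay below control 2 for Selplg, so the groups overlapped (log2 fold change 0.39). Cd37, a tetraspanin best known from B cells, had the value nearest 0 of this group, with 12.1, 9.38 and 9.88 CPM in lecko and 8.99, 10.2 and 8.05 CPM in control libraries (log2 fold change 0.20, SE 0.14).

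Cd52, a small glycoprotein of lymphocytes and myeloid cells, had a log2 fold change of 0.65 with no overlap, although lecko 2 at 16.68 CPM lay just above control 2 at 16.62 CPM. Cd84, a homophilic receptor of the SLAM family, had 0.41, the tetraspanin Cd53 had 0.35, and Laptm5, a lysosomal membrane protein, had 0.35. Lair1, an inhibitory collagen receptor, had 0.67 with the widest error of the set (SE 0.38). Its counts were 23, 24 and 50 in lecko and 19, 27 and 14 in control libraries, and without lecko 3 its log2 fold change was 0.21.

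Of the 5 integrin and cytohesin genes, Itgal and Cyth4 were higher at an unadjusted p under 0.05 by edgeR (4.89% of all genes). Itgal, the alpha chain of LFA-1, gave 10.3, 7.01 and 7.21 CPM in lecko, against 4.32, 6.27 and 3.94 CPM in control libraries. The groups did not overlap, and the log2 fold change was 0.76 (SE 0.22; adjusted p = 0.488 by edgeR). Its partner Itgb2, the beta-2 chain shared by LFA-1 and Mac-1, gave 29.96, 19.6 and 20.5 CPM in lecko and 17.6, 23.3 and 13.2 CPM in control libraries. Control 2 exceeded lecko 2 and lecko 3 for Itgb2, and its log2 fold change of 0.37 had an SE of 0.25 and was 0.15 without lecko 1. Cyth4, a cytohesin that activates ARF GTPases, varied little within groups, with 22.01, 20.1 and 20.6 CPM in lecko and 14.3, 15.3 and 13.5 CPM in control libraries. The log2 fold change of Cyth4 was 0.54 (SE 0.09, 95% interval 0.34 to 0.74), with adjusted p = 0.268 by edgeR and 0.0236 by DESeq2. Cytip, which binds cytohesin-1 and loosens LFA-1 adhesion, had 0.22, and without control 3 it had 0.02. Fermt3, the kindlin that activates integrins in blood cells, gave 17.2, 11.5 and 14.1 CPM in lecko and 12.4, 14.3 and 11.1 CPM in control libraries, with lecko 2 below controls 1 and 2 (log2 fold change 0.18, SE 0.16, and 0.01 without lecko 1). Fermt3 was the sole gene of the 34 whose estimated counts were not whole.

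The 9 actin cytoskeleton genes had the highest median of the larger roles, 0.49. Of them 6 were higher at an unadjusted p under 0.05 by edgeR (4.89% of all genes). Was, the Wiskott-Aldrich syndrome protein that starts branched actin assembly, gave 9.37, 7.46 and 8.63 CPM in lecko, against 4.73, 6.84 and 4.17 CPM in control libraries. The groups of Was did not overlap, and the log2 fold change was 0.69 (SE 0.19; adjusted p = 0.467 by edgeR). Coro1a, an actin-binding coronin of leukocytes, gave 51.2, 38.0 and 39.7 CPM in lecko and 30.04, 34.7 and 24.6 CPM in control libraries, also without overlap (log2 fold change 0.53, SE 0.16). Rac2, the blood cell Rac GTPase, gave 18.0, 15.3 and 12.1 CPM in lecko and 9.80, 12.9 and 8.79 CPM in control libraries, so that lecko 3 lay below control 2 (log2 fold change 0.53, SE 0.18). Arhgdib, a GDP dissociation inhibitor of small GTPases that is abundant in leukocytes, was nearest 0 with 131.9, 110.7 and 107.8 CPM in lecko and 108.2, 107.5 and 98.6 CPM in control libraries (log2 fold change 0.16, SE 0.08). Lecko 1 and lecko 2 lay above every control for Arhgdib and lecko 3 did not, and without lecko 1 the value was 0.05. Between these lay the actin bundler Lcp1 (0.54) and the cortactin relative Hcls1 (0.49). The exchange factors Dock2 (0.48) and Vav1 (0.38) and the WAVE complex subunit Nckap1l (0.37) followed.

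Among 9 signalling genes, Fgr stood out. Fgr, a Src family kinase of myeloid cells, gave 8.07, 7.24 and 6.92 CPM in lecko libraries, against 3.69, 3.68 and 3.77 CPM in control libraries. Each control lay near the same value, and every lecko library was well above it. Counts of Fgr were 143, 128 and 122 in lecko and 64, 64 and 66 in control libraries. At such counts, counting noise alone can exceed the spread seen between these controls. Its log2 fold change was 1.00 (SE 0.13, 95% interval 0.70 to 1.29), the largest of the 34, with adjusted p = 0.127 by edgeR, 0.00298 by DESeq2 and 0.236 by limma-voom. With each library left out in turn it lay between 0.92 and 1.04. With the Y-linked class as a covariate, where the comparison rests on control 1 alone, it was 1.00. The adjusted p of Fgr by edgeR ranged from 0.0644 to 0.901 over all alternatives in edgeR. Plek, pleckstrin of platelets and leukocytes, gave 33.3, 33.7 and 28.7 CPM in lecko and 25.7, 25.1 and 17.9 CPM in control libraries without overlap (log2 fold change 0.48, SE 0.14). Btk, the Tec family kinase of B and myeloid cells, gave 7.05, 7.35 and 6.53 CPM in lecko and 4.84, 5.98 and 4.85 CPM in control libraries, also without overlap (log2 fold change 0.42, SE 0.14). Ptpn6, the phosphatase SHP-1, had the smallest value of all 34: 39.7, 33.0 and 36.3 CPM in lecko and 33.4, 35.0 and 30.2 CPM in control libraries, log2 0.14 (SE 0.09).

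The remaining signalling genes split by group overlap. The adaptor Lcp2 (SLP-76, 0.51) and the class I phosphoinositide 3-kinase subunit Pik3cd (0.36) did not overlap between groups. The lymphocyte adaptor Sash3 (0.43), the inositol phosphatase Inpp5d (SHIP1, 0.22) and the Src family kinase Lyn (0.17) did. Without lecko 1 Lyn was at 0.01, and without control 3 Inpp5d was at 0.05 and Sash3 at 0.27. Lyn and Fgr belong to the same kinase family. Their 95% intervals were -0.27 to 0.61 for Lyn and 0.70 to 1.29 for Fgr, and the difference between these genes was not tested.

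The 2 oxidase genes encode parts of the phagocyte NADPH oxidase, which makes superoxide. Cybb, its membrane catalytic subunit, gave 33.1, 23.7 and 31.1 CPM in lecko and 18.4, 24.4 and 12.5 CPM in control libraries. Lecko 2 lay just below control 2, and the log2 fold change of Cybb was 0.67 (SE 0.25; adjusted p = 0.552 by edgeR). Ncf4, a cytosolic subunit, gave 6.55, 5.14 and 5.39 CPM in lecko and 4.61, 5.92 and 4.05 CPM in control libraries, with overlap (log2 fold change 0.23, SE 0.18).

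Per kilobase of merged exons (GENCODE M21, GRCm38), Arhgdib was the most abundant, at 68.4 CPM per kb in lecko and 61.4 CPM per kb in control skin. Laptm5 followed with 28.3 and 22.3, Cd53 with 22.1 and 17.3, and Cd52 with 17.2 and 11.0 CPM per kb in lecko and control skin. Lair1 was the least abundant, at 0.245 CPM per kb in lecko and 0.154 CPM per kb in control skin. Fgr, with the largest log2 fold change, was at 1.92 CPM per kb in lecko and 0.961 CPM per kb in control skin.

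The 34 genes varied together from library to library. Lecko 1 held the highest value of the 6 libraries for 30 of the 34 genes, and control 3 the lowest for 30. Summed over the genes, the level was 1104, 851.3 and 930.4 CPM in lecko libraries 1 to 3, against 731.1, 864.3 and 611.8 CPM in controls 1 to 3. The sums overlapped, since lecko 2 lay below control 2. Lecko 2 exceeded control 2 for 16 of the 34 genes, control 1 for 29 and control 3 for all 34. Lecko 1 exceeded every control for 33 genes, lecko 3 for 25 and lecko 2 for 16. The share of all tested genes with such an order of libraries was not computed. The mean log2 CPM of the genes was 4.29 ± 0.19 in lecko and 3.85 ± 0.26 in control libraries (SD, n = 3 each), a difference of 0.44.

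**Figure D2:**
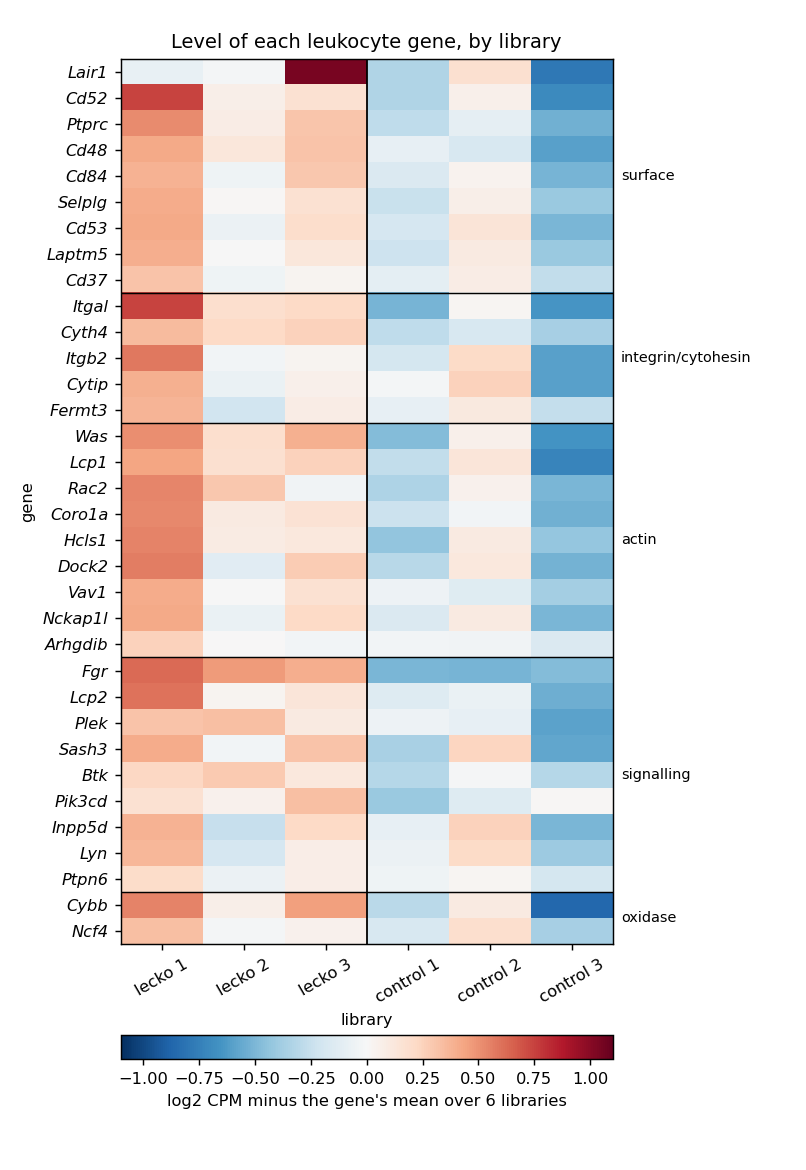
Log2 CPM of each gene minus its mean over the 6 libraries (colour), with lecko and control libraries as columns and genes, by role, as rows. Lecko 1 is the reddest column and control 3 the bluest for nearly all genes. Between lecko 2 and control 2 the differences go both ways. Genes such as Fgr, Cyth4, Btk and Plek are higher in lecko 2, and genes such as Inpp5d, Lyn, Cytip and Fermt3 are higher in control 2.

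Pearson's r of each gene with the mean of the other 33 over the 6 libraries had a median of 0.94, and 22 of the 34 were above 0.9, where 3.61% of all tested genes were. This is a description over 6 libraries that share tissue composition and scaling, and it carries no p. After the mean of each genotype was subtracted, the median was 0.95 and 24 genes were above 0.9 (5.39% of all tested genes), so the common pattern was also present within genotypes. Selplg followed the others most closely (0.99). Pik3cd (0.54) and Lair1 (0.62) followed least, and after subtraction of the genotype means Pik3cd was at -0.13 and Fgr at 0.31. Relative to the mean of the other 33 genes, log2 Fgr was -1.50, -1.28 and -1.51 in lecko and -1.98, -2.25 and -1.69 in control libraries, which did not overlap. Ptpn6 on the same scale was 0.85, 0.96 and 0.94 in lecko and 1.26, 1.05 and 1.36 in control libraries, lower in lecko without overlap. These 2 genes, with the largest and the smallest log2 fold change, were chosen after their values were seen, so their place on this scale is no separate result. On it 4 of the 34 genes were higher in lecko without overlap, 6 were lower and 24 overlapped. The share over other genes was not computed.

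Many of the genes have a more broadly expressed relative, whose function need not be the same, and 20 such pairs were compared. The relatives had a median log2 fold change of 0.04, with 14 of 20 positive (51.9% over all genes) and 0 at an unadjusted p under 0.05 by edgeR. The leukocyte gene exceeded its relative in 20 of 20 pairs, by a median of 0.41 and a range of 0.09 to 0.74. With the Y-linked class as a covariate the median gap was 0.43. Was at 0.69 stood against Wasl (N-WASP) at -0.04, Itgal at 0.76 against the alpha-v chain Itgav at 0.10, and Rac2 at 0.53 against Rac1 at 0.05. The smallest gap was that of Lyn (0.17) and the Src family kinase Yes1 (0.08). The relatives with the smallest p were the integrin beta-1 chain Itgb1 (0.14, adjusted p = 0.671 by edgeR), plastin-3 Pls3 (0.08) and Coro1b (0.09). The ratio of Was to Wasl on the log2 scale was -3.22, -3.57 and -3.44 in lecko and -4.32, -3.79 and -4.38 in control libraries, without overlap. Such ratios did not overlap, with lecko higher, in 7 of the 20 pairs, and they overlapped in the others, among them Rac2 to Rac1, Dock2 to Dock1 and Lcp1 to Pls3. The share of non-overlapping ratios over other gene pairs was not computed.

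**Figure D3:**
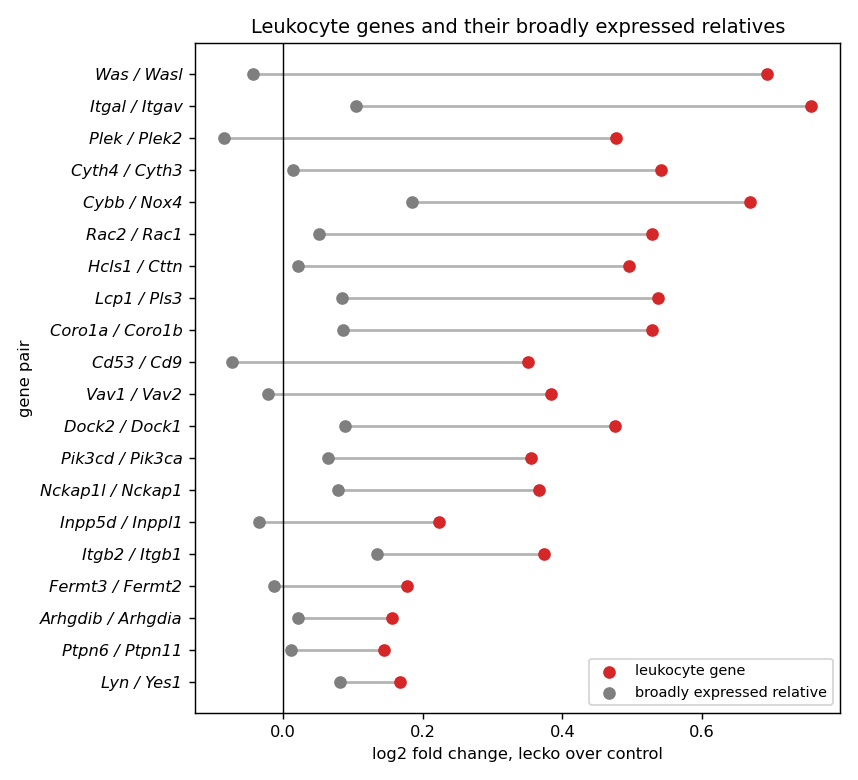
Log2 fold change, lecko over control, on the x axis for 20 pairs on the y axis, each a leukocyte gene (red) and a broadly expressed relative (grey). Every red point lies right of its grey partner, by 0.09 for Lyn and Yes1 up to 0.74 for Was and Wasl.

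A further list of 46 leukocyte signalling and cytoskeleton genes outside the 34 was set beside them. Of these, 45 were tested, 42 were positive (51.9% of all tested genes), and the median log2 fold change was 0.33. By edgeR 19 of the 45 had an unadjusted p under 0.05 and were higher (4.89% of all genes), and 0 passed over all genes. Themis2, a signalling adaptor of B cells and macrophages, had 0.71, the Toll-like receptor relative Cd180 had 1.104, and Evi2a had 0.50, and these had the smallest p of the list. Other subunits of complexes named above were Ncf1 (0.25) of the oxidase and Itgam (0.52) and Itgax (0.50), partners of Itgb2. The phosphoinositide 3-kinase subunit Pik3cg had 0.58 beside Pik3cd at 0.36. The 3 negative genes were Dok3 (-0.28), Arhgap25 (-0.05) and Blnk (-0.05).

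Marker lists of leukocyte types varied with the 34 genes. Macrophage markers had positive log2 fold changes in 8 of 8, a direction that 51.9% of all tested genes had. Their sums were 795.8, 614.9 and 701.5 CPM in lecko and 500.3, 683.7 and 413.7 CPM in control libraries. This is the same order of libraries as that of the summed 34 genes. The mean log2 CPM of the 34 genes minus that of macrophage markers was -2.02, -2.01 and -2.03 in lecko and -1.98, -2.18 and -1.96 in control libraries. The 34 genes therefore differed by 0.02 between genotypes when set against macrophage markers. Set against dendritic markers the difference was -0.03, and against T and NK cell markers it was 0.01, in each case with overlap. These list means weigh every gene alike, also those with few counts. The dendritic marker Siglech had 1.52 with counts of 3, 13 and 17 in controls 1 to 3, while Cd207 had 0.08. Klrb1c of the T and NK list had 0.87 with counts of 10, 16 and 4 there. The median log2 fold change was 0.32 for dendritic and 0.36 for T and NK markers. Dendritic markers were positive in 8 of 8, with sums of 133.1, 111.6 and 117.8 CPM in lecko and 95.54, 117.2 and 86.1 CPM in control libraries. T and NK markers were positive in 7 of the 7 tested, with sums of 45.71, 32.23 and 34.62 CPM in lecko and 31.48, 35.19 and 19.75 CPM in control libraries. Mast cell markers were nearly level (sums of 540.0, 555.3 and 525.5 CPM in lecko, against 488.3, 580.7 and 492.1 CPM in control libraries), and against them the 34 genes were higher in lecko by 0.39, without overlap.

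Neutrophil markers varied between single libraries, with sums of 116.7, 30.98 and 14.02 CPM in lecko and 111.5, 8.11 and 36.03 CPM in control libraries. S100a8 and S100a9, which keratinocytes also make, held most of the sum in the libraries other than lecko 3 and control 2. The order of the sums did not follow that of the 34 genes. Csf3r, the receptor of the granulocyte growth factor G-CSF, gave 5.81, 3.11 and 3.23 CPM in lecko and 2.19, 2.18 and 2.28 CPM in control libraries, without overlap (log2 fold change 0.87, adjusted p = 0.504 by edgeR). The defining marker Ly6g was not among the 4 of 8 tested. Among non-immune cells, endothelial markers had negative log2 fold changes in 5 of 5, where 51.9% of all tested genes were positive. Their sums were 249.4, 246.8 and 231.3 CPM in lecko and 273.5, 287.3 and 299.8 CPM in control libraries. Lymphatic markers were mixed. Prox1 (0.18) and Pdpn (0.20) were positive, and Lyve1 (-0.10), Flt4 (-0.16) and Ccl21a (-0.58) were negative. Lymphatic sums were 251.3, 245.4 and 221.4 CPM in lecko and 293.3, 303.6 and 260.9 CPM in control libraries. The mean log2 CPM of that list overlapped between groups. Muscle markers were negative in 5 of 5, with sums of 4012, 3699 and 2932 CPM in lecko and 4429, 4121 and 4559 CPM in control libraries. Keratinocyte and fibroblast marker sums overlapped between groups. The part of tissue composition in the values of the 34 genes was not tested.

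**Figure D4:**
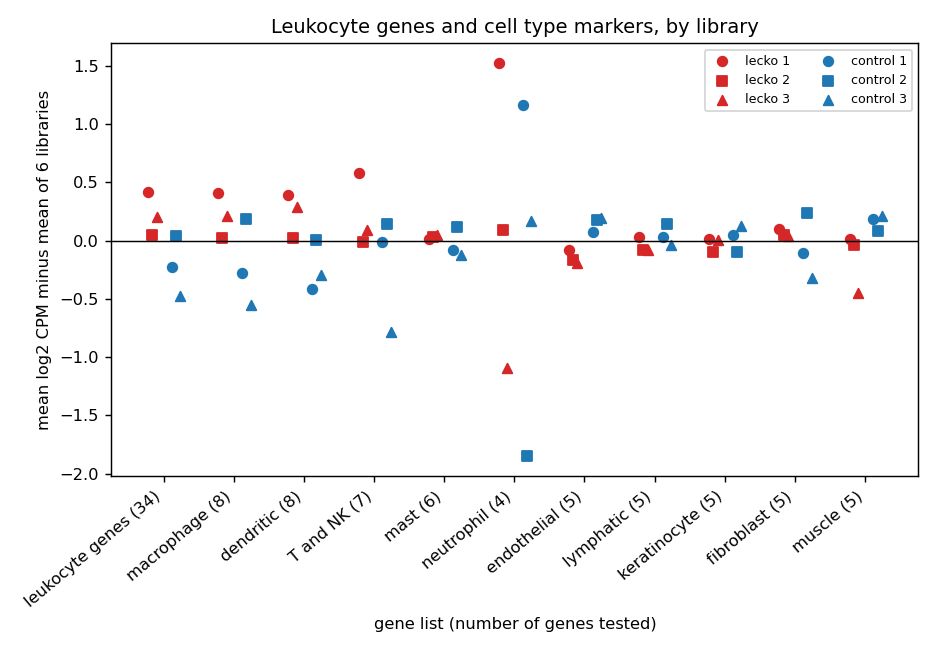
Mean log2 CPM of each gene list minus its mean over 6 libraries (y axis), for the 34 leukocyte genes and marker lists (x axis). Red is lecko and blue control, with shapes for replicates 1 to 3. The macrophage, dendritic and T and NK lists spread like the leukocyte genes, with lecko 1 at or near the top, and the mast cell list lies near 0.

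The number of the 34 that passed the unadjusted threshold differed between fits. The count of 19 was 10 without control 1 and 10 without lecko 1, where 2.80% and 3.83% of all genes passed, 12 without control 3 (3.99%) and 25 without control 2 (7.32%). With the Y-linked class as a covariate it was 8 (3.14% of all genes), and the median log2 fold change was 0.43. Controls 2 and 3 alone form that class, so the genotype term of this fit compares lecko with control 1. A fit against control 1 alone, the control without Y-linked expression, makes the same comparison and is not a separate check. There all 34 were positive with a median of 0.43. The fit against control 1 alone was chosen after seeing the data and assumes that the lone control varies like the lecko libraries. The 14 genes without overlap became 28 without control 2, where 15.6% of all genes did not overlap, and 24 without lecko 2, where 14.1% did not. All 34 genes stayed positive in each of these fits. Among genes near 0, leaving out lecko 1 gave 0.07 for Cd37, 0.07 for Ptpn6 and 0.11 for Ncf4.

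Cd52, Cd37, Fermt3, Coro1a, Arhgdib and Plek share exon positions with a gene on the opposite strand that is also in the count table (Crybg2, Tead2, Trpt1, Bola2, Pde6h and Cnrip1). The strand setting of the counting is not given in the sources used here, so reads of such pairs may not be told apart.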

How the data were processed

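Polyadenylated RNA of ear skin was sequenced in 3 lecko and 3 control libraries, grouped by the sample titles. The deposited values are estimated counts per gene, a unit inferred from non-whole values in 9.60 to 10.5% of genes in each library. Per the submitters' processing notes, RSEM 1.3.1, Bowtie2 2.4.5 and HISAT2 2.2.1 were used with build GRCm38.p6. What each tool did is not stated there. Counts were rounded, filtered with filterByExpr (minimum count 10, minimum total 15; 3626 genes left out), scaled by TMM and tested in R 4.3.3 by the robust quasi-likelihood method of edgeR 4.0.16 with group as the sole term, with Benjamini-Hochberg adjustment and a threshold of 0.05. The SE is the log2 fold change divided by the root of the F statistic. Log2 CPM used a prior count of 2. No library was counted as a duplicate: chi-square per degree of freedom ran from 8.15 to 17.4 between libraries of a group. Intervals cover the replicate spread of the fit.

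The genes and lists were chosen with earlier results of these data known, so no p is adjusted over a list and no list is tested. Values per library are printed for the 3 genes of each role with the smallest p and the one nearest 0, for both oxidase genes and for Ptprc, and for others where said. The fit was tested on simulated data. Alternatives were DESeq2 1.42.0, limma-voom (limma 3.58.1), other scalings and filters, a non-robust fit, a replicate block, the Y-linked class (sum of 4 Y-linked genes above 10 CPM) as a covariate and leaving out each library. The fit without controls 2 and 3 was added after seeing the data.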

Additional observations from a re-analysis of the deposited data

How the results depend on the processing

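The median log2 fold change of the 34 genes stayed positive under every alternative run and within the spread between replicates, from 0.32 without lecko 1 to 0.57 without control 2, and the median gap to the broadly expressed relatives ran from 0.29 to 0.52 with single libraries left out. DESeq2 called 24 genes higher and 8 lower in all, against 2 and 1 by edgeR, and these counts ran from 2 to 36 higher and 1 to 5 lower with single libraries left out. The count of the 34 at an unadjusted p under 0.05 ran from 10 to 25 with single libraries left out and was 8 with the Y-linked class as a covariate. The count without overlap ran from 13 to 28 with single libraries left out, and was 28 without controls 2 and 3 (chosen after seeing the data), where 27% of all genes did not overlap with lecko higher. Fewer samples make non-overlap easier, as the shares of all genes show; the cause of the other changes was not tested. With a replicate block the median was 0.44 and 17 of the 34 were higher at an unadjusted p under 0.05 (4.99% of all genes). Same-numbered libraries shared only a number (correlations of their deviations 0.34, -0.07 and 0.04), and the block changed no call. Among values of single genes under alternatives, 3 crossed the adjusted threshold, those of Fgr, Ptprc and Cyth4 by DESeq2, and the other 574 kept their sign and their side of it. Under the stricter filter 33 of the 34 remained testable. Depth limits Lair1, whose counts were 14 to 50.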
